A study of Mus musculus with 13 samples.

Results

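The regions described here are 911 stretches of mouse chromatin that were accessible in distal forelimb (DFL) and in forebrain (FB) cells and fell outside the strongest regions of proximal forelimb (PFL) cells at embryonic day E12.5, out of 112414 merged regions in all. Accessibility was measured by ATAC-seq, in which the Tn5 transposase inserts sequencing adapters into DNA that is not covered by nucleosomes, and 50000 cells entered each library. Members were chosen by presence: in each of 12 libraries the 50000 strongest called regions on chromosomes 1 to 19 (chromosome 2 only below 75 Mb) were kept and merged across libraries, and a member had to be present in at least 3 of 4 DFL libraries, in at least 3 of 4 FB libraries and in none of the 4 PFL libraries. That DFL and FB hold the members while the PFL lists do not is therefore the selection itself and not a result.

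All embryos had the B6CBAF1 background and no treatment. Each of the 6 groups (DFL, FB and PFL, each from wild-type (wt) and from 542 embryos) had 2 libraries, and each library came from a pool of tissue of several embryos, so p-values measure the spread between such pools. The 542 embryos were homozygous for a single copy of the II1 distal limb enhancer, coupled to an HBB promoter and a LacZ reporter, placed in the T-DOM landscape telomeric to the HoxD cluster. A further wt DFL library from earlier work, called the earlier wt DFL library here, took no part in the choice.

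Enhancers and other distal elements are usually open only in the cell types that use them, and many are opened by transcription factors that are shared between organs. Homeodomain proteins of the DLX, LHX and MSX families are a well known case. Members of these families act both in the growing tip of the limb bud and in the telencephalon, and many of them bind a short AT-rich core, TAATTA. HOX13 proteins act in the distal limb and not in the forebrain, while MEIS proteins mark the proximal limb and parts of the brain.

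The sequences of 8 of the 12 members highest in both tissues, and of 4 members next to genes of developmental lists, are shown so that the homeodomain core can be seen in its surroundings, in windows with and without it. Each is read from GRCm38 (mm10), plus strand, centred on the strongest summit, and capitals mark the homeodomain core TAATTA, which reads the same on both strands.
Naaladl2 region, chr3:24605628-24605828: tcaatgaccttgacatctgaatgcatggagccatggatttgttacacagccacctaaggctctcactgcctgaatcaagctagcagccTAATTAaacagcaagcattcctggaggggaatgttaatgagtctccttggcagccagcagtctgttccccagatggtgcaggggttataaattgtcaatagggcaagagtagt
Epb41 region, chr4:132025891-132026091: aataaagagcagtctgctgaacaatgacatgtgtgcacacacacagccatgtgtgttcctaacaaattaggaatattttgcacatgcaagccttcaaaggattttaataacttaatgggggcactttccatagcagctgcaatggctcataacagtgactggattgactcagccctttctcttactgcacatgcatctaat
Kif21a region, chr15:91056256-91056456: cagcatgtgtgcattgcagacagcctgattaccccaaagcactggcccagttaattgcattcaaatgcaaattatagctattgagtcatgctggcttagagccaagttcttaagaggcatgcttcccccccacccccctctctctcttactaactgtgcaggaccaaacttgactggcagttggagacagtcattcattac
Pappa region, chr4:65252336-65252536: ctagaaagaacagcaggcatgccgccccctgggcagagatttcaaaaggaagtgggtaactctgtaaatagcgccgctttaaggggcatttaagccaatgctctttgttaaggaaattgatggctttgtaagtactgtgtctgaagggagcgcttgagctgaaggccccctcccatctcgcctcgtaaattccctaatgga
Glra3 region, chr8:55964832-55965032: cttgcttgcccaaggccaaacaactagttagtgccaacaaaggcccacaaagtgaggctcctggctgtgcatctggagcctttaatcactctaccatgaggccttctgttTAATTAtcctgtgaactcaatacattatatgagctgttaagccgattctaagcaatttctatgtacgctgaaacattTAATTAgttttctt
Iqcm region, chr8:76072780-76072980: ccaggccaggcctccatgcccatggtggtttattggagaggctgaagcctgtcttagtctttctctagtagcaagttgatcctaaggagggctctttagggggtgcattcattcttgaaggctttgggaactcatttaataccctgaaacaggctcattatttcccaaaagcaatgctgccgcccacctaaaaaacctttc
Gm12695 region, chr4:96766474-96766674: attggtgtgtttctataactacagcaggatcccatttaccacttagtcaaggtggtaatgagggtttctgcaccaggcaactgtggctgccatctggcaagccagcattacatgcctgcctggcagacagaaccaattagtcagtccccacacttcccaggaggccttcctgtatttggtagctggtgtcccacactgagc
Atxn7l3b region, chr10:112876765-112876965: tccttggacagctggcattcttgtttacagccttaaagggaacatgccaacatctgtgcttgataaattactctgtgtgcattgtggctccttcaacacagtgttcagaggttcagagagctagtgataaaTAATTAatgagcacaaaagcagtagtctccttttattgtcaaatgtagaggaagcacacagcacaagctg
Epha5 region, chr5:84690810-84691010: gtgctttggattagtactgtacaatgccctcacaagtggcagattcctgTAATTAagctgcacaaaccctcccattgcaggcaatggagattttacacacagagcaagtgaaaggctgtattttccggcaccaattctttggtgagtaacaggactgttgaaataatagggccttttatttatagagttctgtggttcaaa
Sox9 region, chr11:112977032-112977232: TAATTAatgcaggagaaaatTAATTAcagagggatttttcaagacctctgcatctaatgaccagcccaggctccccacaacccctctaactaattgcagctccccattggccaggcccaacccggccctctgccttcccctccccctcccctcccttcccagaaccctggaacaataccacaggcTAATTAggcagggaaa
Tenm4 region, chr7:95834602-95834802: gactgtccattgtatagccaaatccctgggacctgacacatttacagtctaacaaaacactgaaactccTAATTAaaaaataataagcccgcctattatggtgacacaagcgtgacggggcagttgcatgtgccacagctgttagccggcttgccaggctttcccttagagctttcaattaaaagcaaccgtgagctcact
Fezf1 region, chr6:23280921-23281121: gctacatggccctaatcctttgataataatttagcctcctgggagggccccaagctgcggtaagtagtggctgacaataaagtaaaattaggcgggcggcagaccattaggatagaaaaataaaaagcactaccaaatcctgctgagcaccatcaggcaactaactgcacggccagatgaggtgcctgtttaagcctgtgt
The core is present in 3 of the first 8 windows and in 3 of the other 4, and the window near Sox9 holds 3 matches. Over a longer window of 300 bp around the summit, 10 of the 12 members highest in both tissues held it.

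The library files held 78945 to 109961 called regions in the 12 libraries and 122493 in the earlier one. The fold and p-value deposited for each region imply about 37.5 to 70.7 M tags (M, in units of 1e6) per library in the 12, with the FB libraries deepest (51.4 to 70.7 M), DFL at 40.2 to 54.5 M and PFL at 37.5 to 52.6 M. Each value printed below is the fold of a region, which is the number of tags under its strongest summit over the local background of the same library. At the members the median tag count under the summit was 35 to 44 in the DFL libraries, 58 to 77 in FB and 17 to 23 in PFL where a PFL region was called at all. Tissue markers were read at transcription starts (regions within 1000 bp), and some followed the labels. Hoxa13 and Hoxd13, which mark the digit-forming end of the limb, had folds of 8.67 to 10.1 in the 4 DFL libraries and 3.4 to 6.38 in PFL. In FB, Hoxd13 still had a region in every library (3.17 to 4.11), and Hoxa13 had one in wt FB replicate 1 only (2.8). Six3, a forebrain homeobox gene, had 4.88 to 6.04 in FB and no region in the 8 limb libraries. The neuronal gene Stmn2 had 9.58 to 10.6 in FB and 0 to 4.83 in DFL. Other markers did not follow the labels: Msx2 (limb) had 5.9 to 7.23 in DFL and 8.78 to 12.3 in FB, and Meis2 (proximal limb) had 7.95 to 12 in DFL and 5.03 to 6.87 in PFL. Among markers of other cell types, Gata1 (blood) had no region in any library, Cdh5 (endothelium) had one in 2 libraries, Krt5 and Krt14 (surface ectoderm) in 1 library each, and Trp63, of the same tissue, in 3 of 4 DFL libraries (4.03 to 4.42), 3 of 4 PFL libraries (2.71 to 3.2) and no FB library, whereas Klf1 (blood) and Kdr (endothelium) had regions in every library, at folds of 11.4 to 16.1 and 6.64 to 15, so open starts at these genes do not tell cell types apart here.

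Of the 911 members, 442 were in the list of all 8 DFL and FB libraries, 308 in 3 DFL and 4 FB libraries, 81 in 4 DFL and 3 FB libraries, and 80 in 3 of each. Counting called regions of any rank, 858 members were found in all 8. In the DFL libraries the median fold of the members was 5.7 and 5.72 (wt) and 5.86 and 5.88 (542). In the FB libraries it was 7.47 and 7.09 (wt) and 7.28 and 7.27 (542). The FB values all lay above the DFL values, and the FB libraries were also deeper in tags, whose part in the difference was not tested. The members were of middle strength. Their median fold averaged 5.79 ± 0.0921 over the DFL libraries and 7.28 ± 0.155 over the FB libraries (here and below ± is the SD of 4 libraries unless named SE), next to 9.89 ± 0.354 and 11.1 ± 0.368 for the 22105 regions present in all 3 tissues, 5.78 ± 0.0882 in DFL for the 3994 regions of DFL alone and 6.57 ± 0.139 in FB for the 13242 regions of FB alone.

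**Figure D1:**
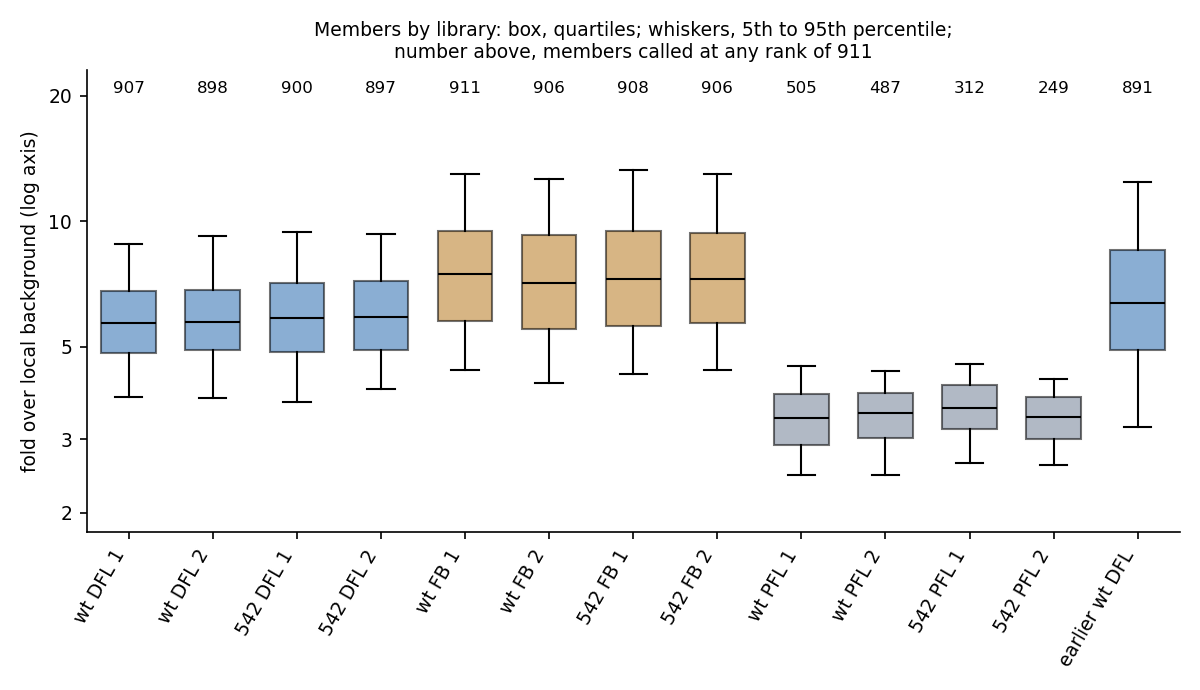
Fold over local background (log axis) of the members in each of the 12 libraries and in the earlier wt DFL library; boxes give the quartiles, whiskers the 5th and 95th percentiles, and the number above each box counts the members called there at any rank. The FB medians (7.09 to 7.47) sit above the DFL medians (5.7 to 5.88), and the PFL values, where called, sit lower (medians 3.38 to 3.56).

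Outside the PFL lists did not mean closed in PFL. At lower ranks, a region was called at 505 and 487 members in the wt PFL libraries and at 312 and 249 members in the 542 PFL libraries. In all, 239 members had no call in any PFL library, 174 had one in 1 library, 217 in 2, 179 in 3 and 102 in all 4. Where called, the PFL median fold was 3.38 and 3.47 (wt) and 3.56 and 3.4 (542), below every DFL and FB median. The 542 PFL libraries were also the shallower ones, at 37.9 and 37.5 M tags against 48.8 and 52.6 M in wt PFL, and the part of depth in the number of calls was not tested. The rule cuts through a continuous range. The members ranked nearest below the list end in a PFL library were the region near Reep3, at rank 50017 and fold 4.43 in 542 PFL replicate 1, and the region near Tnfaip8l1, at rank 50056 and fold 4.49 in wt PFL replicate 1. On the other side, the last member inside a list was the region near Defb41, at rank 49995 and fold 4.79 in wt FB replicate 1.

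The DFL and FB summits lay close together at most members, but not at all of them. A DFL region and an FB region shared bases directly in all 911 members. Regions sharing at least 1 bp were merged before the choice, so this is largely set by the rule and is not a result. The median distance between the typical DFL summit and the typical FB summit was 30.5 bp. The distance was 100 bp or less at 687 members and beyond 300 bp at 103 members. Between single libraries of the same tissue, the median summit distance was 27 to 30 bp over the 6 DFL pairs and 18 to 21 bp over the 6 FB pairs. Across the 16 DFL to FB pairs it was 38 to 45 bp, so the shift between tissues was larger than between libraries of a tissue. In regions of all 3 tissues it was 9 to 11 bp, 7 to 8 bp and 11 to 13 bp for the same kinds of pair.

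The pattern was compared between genotypes, with regions chosen on the libraries of 1 genotype and read in the other. All 12 libraries had set the members and the merged regions, so this is not an independent check. When regions were chosen on the 6 wt libraries only (both DFL, both FB and no PFL), 1109 were found, and 442 of them (39.9%, 95% exact binomial interval 37 to 42.8%) had the same pattern in the 6 542 libraries, against 1.26% of all merged regions. Chosen on the 542 libraries, 1416 were found and 442 (31.2%, interval 28.8 to 33.7%) recurred in wt, against 0.987% of all merged regions. The 442 are the same regions in both directions, and are the members in the list of all 8 DFL and FB libraries. The shares of all merged regions count regions of every class, also those not open in both tissues. For the reverse limb pattern, open in PFL and FB but not DFL, 681 were chosen on wt and 131 (19.2%) recurred in 542, against 0.593% of all merged regions. For the pattern of DFL and PFL without FB the share was higher than for the members, at 60.3% of wt-chosen regions found in 542 and 72.3% of 542-chosen regions found in wt. Of the members, 571 (62.7%, interval 59.4 to 65.8%) were in the list of the earlier wt DFL library, against 41.7% of all merged regions, and 891 (97.8%) were called there at some rank, against 69.4% of all merged regions. The share in that list was 69.2% for regions of DFL alone, 15.2% for regions of PFL and FB, and 1.82% for regions of FB alone. These intervals cover counting error only.

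The 12 members highest in both tissues, ordered by the lower of their tissue means, lay near genes of many kinds. The first lay in an intron of Naaladl2, a peptidase-like gene, at chr3:24605336-24606194 (177894 bp from the nearest coding start). Its fold was 11.8, 11, 11.8 and 12.7 in DFL (wt replicates 1 and 2, then 542 replicates 1 and 2, the order used throughout) and 14.2, 14.6, 16.9 and 13.8 in FB. Every FB value was above every DFL value, with one PFL call at 3.37. In the centred limma test given below its difference did not pass (log2 difference 0.15, limma adjusted p = 0.28). It passed only without centring (limma adjusted p = 0.0277). The second, in an intron of Epb41, which encodes the membrane skeleton protein 4.1R, at chr4:132025612-132026450, had 12.4, 12.9, 10.8 and 12.4 in DFL and 10.9, 11.2, 11.3 and 12.7 in FB, and here the tissues overlapped. The third lay outside genes at chr15:91056092-91057087, 6408 bp from the start of Kif21a, a kinesin motor gene. It had 11, 11, 9.89 and 8.69 in DFL and 18.4, 19.2, 17.3 and 17.2 in FB, with no PFL call.

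The other 9 had mean folds of 9.41 to 11.3 in DFL and 9.19 to 15.6 in FB. Among them were an intron of Pappa, a protease that cleaves IGF-binding proteins (chr4:65251851-65252735, 9.87 ± 0.802 in DFL, 15.6 ± 0.702 in FB), and an intron of Glra3, a glycine receptor subunit (chr8:55964316-55965298, 9.72 ± 0.88 and 12.2 ± 1.54). A UTR exon of Edar, the ectodysplasin receptor of skin appendages, was open at chr10:58600919-58602302, with 10.3 ± 0.609 in DFL and 9.57 ± 1.33 in FB, and had calls in 3 PFL libraries at 3.54 to 4.22. The remaining ones lay in introns of Gm45740, Gm12695, Jakmip2 and Chst8 and outside genes nearest to Atxn7l3b and Arrdc3, up to 688100 bp from the nearest coding start. The region near Atxn7l3b varied most within DFL, from 6.3 in wt replicate 1 to 12.8 in 542 replicate 1.

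**Figure D2:**
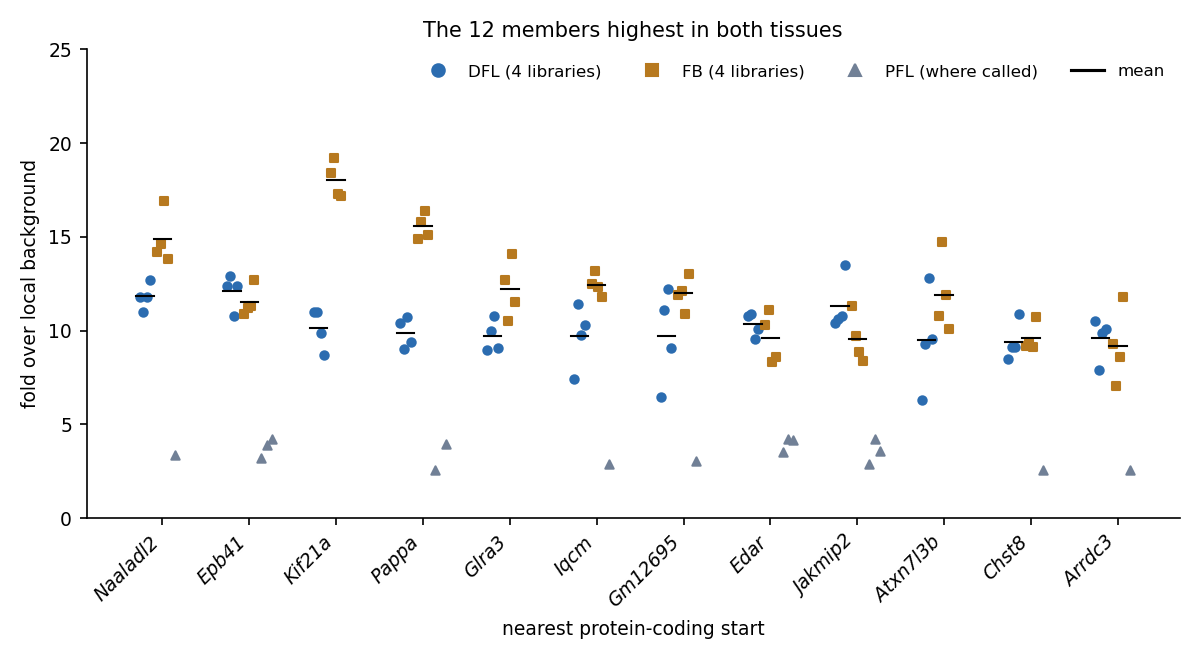
Fold over local background of the 12 members highest in both tissues, named by the nearest protein-coding start, one point per library and a bar at the mean of the 4 DFL and of the 4 FB libraries; PFL points are drawn only where a region was called. DFL means run from 9.41 to 12.1 and FB means from 9.19 to 18, and PFL points, where present, lie between 2.56 and 4.22.

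The rule ranked regions by q-value, then fold, and left out those strong in PFL, the sister limb tissue, so the members' counts against all regions below are a description, and how far the choice sets them was not tested. The level in DFL against FB was tested at each region with limma on the log2 fold centred on the library median, over the 30701 merged regions called in all 8 libraries, 858 of them members. The 53 members with a missing call are not in this test. FB was higher at 249 of the 858 members (29%; 13.8% of all regions fitted) and DFL at 104 (12.1%; 18% of all regions fitted), at an adjusted p below 0.05 (Benjamini-Hochberg). The median difference, FB minus DFL, was 0.14 on the log2 scale over the members and -0.03 over all regions fitted. Without centring, the median of all regions moved to 0.14 and the calls to 372 with FB higher and 52 with DFL higher, so FB made up 70.5% of the calls with centring and 87.7% without. Over all regions fitted, 4235 were called with FB higher and 5523 with DFL higher with centring. Their calls without centring are not given here, so the uncentred split of the members has no baseline. In plain values, the 4 FB folds all lay above the 4 DFL folds at 317 members and the reverse held at 45. These folds are not centred, and without centring the median of all regions fitted also lay toward FB (0.14). The same count was not made over all regions fitted, so the split cannot be read as particular to the members.

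Of the members with higher FB signal, the largest difference was near the predicted gene Gm12830, at chr4:114678046-114678848 outside genes. Its fold was 3.92, 4.28, 3.54 and 4.02 in DFL and 15.2, 15.9, 15.6 and 14.7 in FB, a log2 difference of 1.79 ± 0.0869 (SE; limma adjusted p = 9.92e-05). The groups were far apart in every library. An intron of Sv2c, a synaptic vesicle gene (chr13:95994776-95995726), had 7, 3.63, 5.61 and 6.42 in DFL and 17.4, 16.6, 18.7 and 19.3 in FB (log2 difference 1.53 ± 0.192, SE, limma adjusted p = 0.00128). An intron of Fbrsl1 (chr5:110416448-110417540) had 5.14, 4.63, 3.31 and 4.98 against 14.4, 14.3, 14.5 and 14.4 (1.52 ± 0.13, SE, limma adjusted p = 3.07e-04), the tightest FB values of this group. Regions near Mgat4c, a glycosyltransferase gene, and in Gpc5, a glypican gene, followed with log2 differences of 1.45 and 1.37.

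Of the members with higher DFL signal, the region outside genes nearest to Mex3b, which encodes an RNA-binding protein, came first (chr7:83014853-83016335). Its fold was 12, 13.7, 10.5 and 8.69 in DFL and 6.66, 5.39, 4.94 and 4.31 in FB, a log2 difference of -1.25 ± 0.113 (SE; limma adjusted p = 3.67e-04). No FB value reached the lowest DFL value. An intron of Efcab14, with Tex38 as the nearest coding start (chr4:115760779-115761788), had 8.48, 8.58, 8.66 and 10.4 in DFL and 4.9, 4.82, 4.81 and 4.46 in FB (-1.10 ± 0.0872, SE, limma adjusted p = 2.47e-04), and no PFL call. Regions nearest to Pde7b, a phosphodiesterase gene, and in Rims2, a presynaptic scaffold gene, differed by -1.22 and -1.01, and the region nearest to Arap3 by -0.96.

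**Figure D3:**
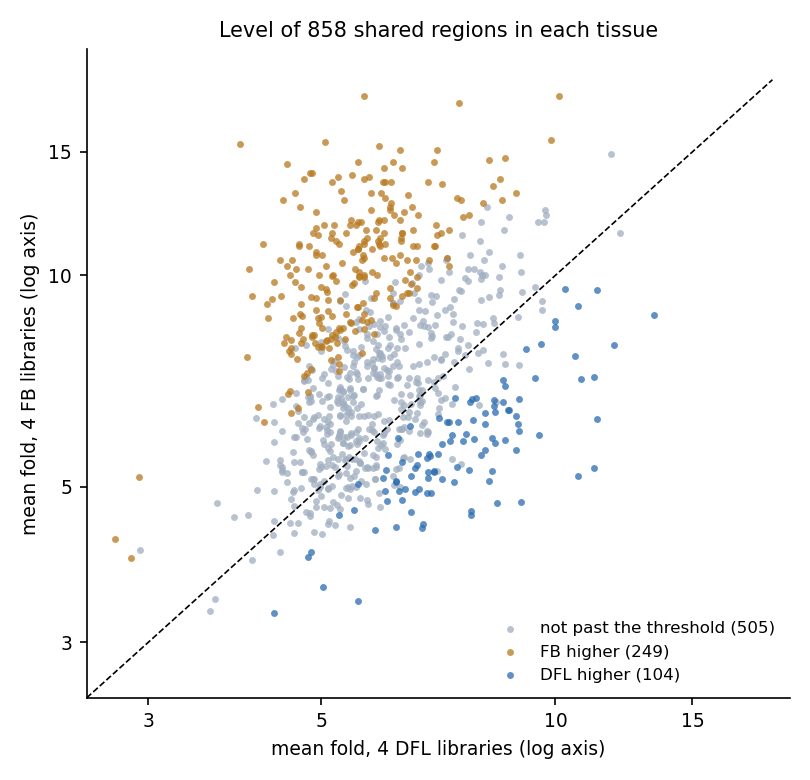
Mean fold over the 4 DFL libraries (x axis) and the 4 FB libraries (y axis), both log axes, for the 858 members called in all 8 libraries; the dashed line marks equal fold, and colours mark the 249 members with higher FB and the 104 with higher DFL level. The colours follow the centred limma test, so members with FB higher lie well above the dashed line, while some members with DFL higher lie close to it.

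Between genotypes no member passed the limma test after adjustment, with 0 of 858 higher in 542 (0.00977% of all regions fitted) and 0 lower (0.00326% of all regions fitted), and the smallest adjusted p of a member was 0.131. At an unadjusted p below 0.05, 139 members (16.2%; 6.12% of all regions fitted) had the higher value in 542 and 30 (3.5%; 5.02% of all regions fitted) the lower. Without centring these counts were 84 and 48, and the shares of all regions fitted in that setting are not given here. The median difference, 542 minus wt, was 0.10 on the log2 scale over the members against 0.01 over all regions, at 0.14 in DFL and 0.07 in FB, and without centring 0.03 against -0.05. The 542 DFL libraries had about 40.2 and 41.3 M tags and the wt DFL libraries 44 and 54.5 M, and the part of depth was not tested. No member passed for the interaction of genotype and tissue, as for all regions fitted (0%). At an unadjusted p below 0.05 the 542 effect was higher in FB at 35 members (4.08%; 4.2% of all regions fitted) and lower in FB at 68 (7.93%; 4.52% of all regions fitted).

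Members lay farther from coding starts than merged regions as a whole. Their strongest summits were within 1000 bp of an annotated transcription start in 69 cases (7.57%, against 17.4% of all merged regions and 56.8% of regions of all 3 tissues), in an exon in 17, in an intron in 432 (47.4%, against 39.9% of all merged regions, 46.8% of regions of DFL alone and 46.6% of regions of FB alone) and outside genes in 393 (43.1%, against 39.8%, 46.4% and 44.6%). The median distance to a protein-coding start was 77598 bp, and 388 members (42.6%) were more than 100 kb away, against 43243 bp and 32.3% for all merged regions. The median distance was 73732 bp for regions of DFL alone and 79863.5 bp for regions of FB alone. The median merged width was 895 bp and the median GC content of the 300-bp window 46.3%, against 47% for all merged regions.

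Of the 21 motifs searched, TAATTA had the highest share in members relative to all merged regions. It occurred within 300 bp around the summit in 364 of 911 members (40%, 95% exact binomial interval 36.8 to 43.2%), against 14.2% of all merged regions. The interval covers counting error only and treats members as independent. Under some other rules of choice the share lay outside it, from 33% without replicate 2 to 46.9% with no PFL call. Under the remaining rules it lay within. The share was 31.5% in regions of FB alone and 21.7% in regions of DFL alone. In the classes that include PFL it was lower, at 10.7% in regions of PFL and FB, 9.69% in regions of DFL and PFL, and 4.72% in regions of all 3 tissues. More than 1 match was found in 9.66% of members, against 2.36% of all merged regions and 7.79% of regions of FB alone. These shares are descriptions, since a match is not a bound site.

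Among all 2080 6-letter words counted on both strands in the same windows, TAATTA had the highest ratio of its share in members to its share in all merged regions, 2.82. The next words were CAATTA (2.23), AATTAG (2.23), AATTAA (2.17) and ATTAGC (2.13), which overlap or resemble the core. TAATTA was also first in regions of FB alone (2.23), 67th in regions of DFL alone (1.53), and 1736th in regions of PFL and FB (0.758). The other palindromes built of 3 A and 3 T had ratios of 0.789 to 1.22 except ATTAAT (1.99): TTTAAA was found in 18.3% of members and 18% of all regions, AAATTT in 8.89% and 10.1%, and AATATT in 7.14% and 8.74%, while ATTAAT, which carries ATTA, was found in 19.1% and 9.58%. The share in members was also the higher one within each class of base composition. In windows with a GC content below 42% the core was found in 52.7% of members and 25.9% of all regions, at 42 to 50% in 40.9% and 15.4%, and at 50% or above in 28.5% and 5.46%.

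**Figure D4:**
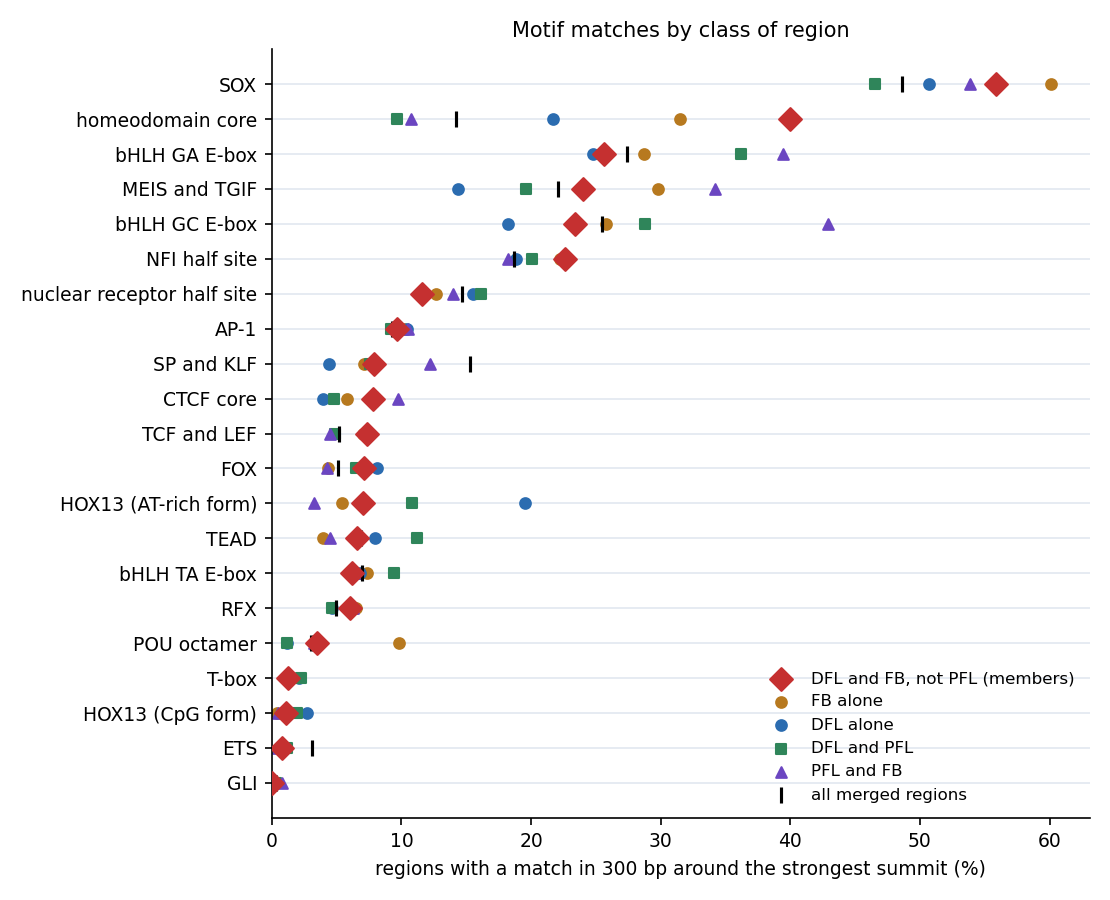
Share of regions (%) with a match to each of 21 motifs, on either strand, in 300 bp around the strongest summit, for the members (diamonds), 4 other classes and all merged regions (vertical ticks). For the homeodomain core the members lie at 40%, above FB alone (31.5%), DFL alone (21.7%) and the classes with PFL (9.69 and 10.7%); for the E-boxes CAGCTG and CATCTG and the MEIS and TGIF word the regions of PFL and FB lie highest.

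Matches to the core were denser beside the summit than at the edges of the window. They numbered 8.01 and 6.7 per 100 members in the 30-bp bins on either side of the summit, and 3.73 and 3.51 per 100 members at the edges. In all merged regions the same bins held 2.06 and 2 in the middle and 1.35 and 1.47 at the edges. In regions of FB alone they held 5.66 and 5.54 in the middle and 2.36 and 2.8 at the edges. The median distance of a match from the summit was 59 bp in members, 57 bp in regions of FB alone and 66 bp in all merged regions. Among the 8-letter forms, CTAATTAA (9.77% of members, 2.73% of all merged regions) and GTAATTAA (8.56% and 2.06%) were the most frequent in members. The core was found in 43% of the members outside genes, 40.3% of those in introns and 24.6% of those near a transcription start. Near a transcription start, 4.32% of all merged regions held it, 19.2% of regions of FB alone and 19.8% of regions of DFL alone.

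**Figure D5:**
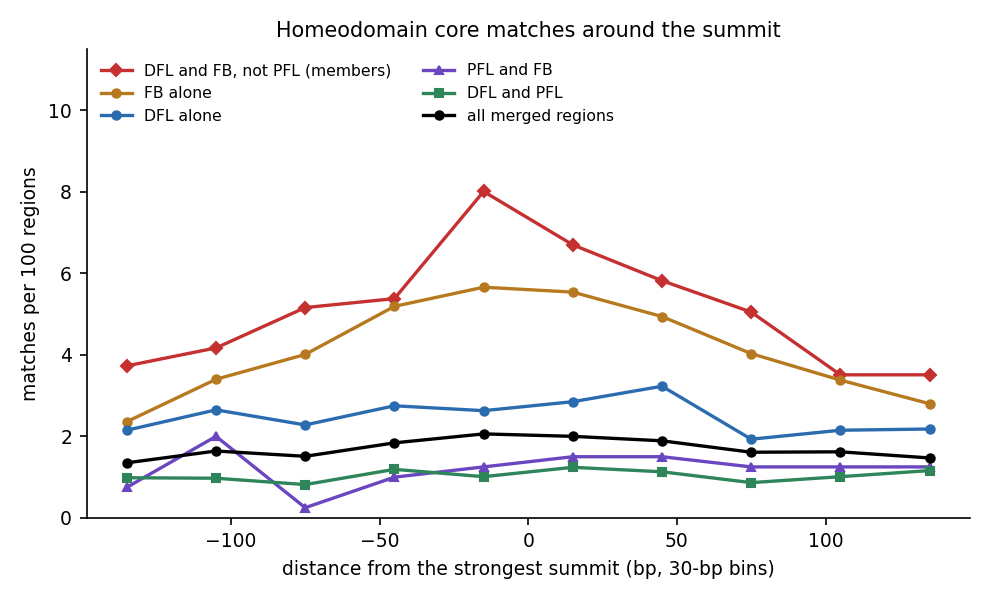
Homeodomain core matches per 100 regions in 30-bp bins of distance from the strongest summit (bp), for the members, 4 other classes and all merged regions. The member curve peaks beside the summit at 8.01 matches per 100 regions and lies above every other class in each bin.

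The core was more frequent among the strongest members. Ordered by the lower tissue mean, it was found in 51.6% of the highest 215 fitted members (6.32 to 11.8), and in 37.7%, 40.7% and 34.6% of the 3 following groups of 214 or 215. It was found in 46.9% of the 239 members with no PFL call, in 42% and 41% of those called in 1 or 2 PFL libraries, and in 31.3% and 33.3% of those called in 3 or 4. The 353 fitted members with the core had a median fold of 5.9 in DFL and 8 in FB, and the 505 without it 5.7 and 6.86. Of the 249 members with higher FB level 46.6% held the core, and of the 104 with higher DFL level 37.5%. The groups with and without the core were not tested against each other.

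Some motifs were rarer in members than in all merged regions. The ETS word CCGGAAG was found in 0.768% of members and 3.12% of all merged regions, and the SP and KLF word GGGCGG in 7.9% and 15.3%. Both were most frequent in regions of all 3 tissues, at 10.7% and 47%. The SOX word ACAANG, read by a family that includes cartilage and neural progenitor regulators, was found in 55.9% of members, 60.1% of regions of FB alone and 48.6% of all merged regions. The HOX13 word CAATAAA was found in 7.03% of members, near the 7.19% of all merged regions, but in 19.5% of regions of DFL alone. The octamer of POU factors (ATGCAAAT), found in 9.78% of regions of FB alone, was in 3.51% of members and 3.06% of all merged regions. The MEIS and TGIF word TGACAG was in 24% of members, 22.1% of all merged regions and 34.2% of regions of PFL and FB. The E-box CAGCTG was in 23.4% of members, 25.5% of all merged regions and 42.9% of regions of PFL and FB, and the E-box CATCTG in 25.6%, 27.4% and 39.4%. The word CTTTGAT of TCF and LEF factors, which transmit Wnt signals, was in 7.35% of members and 5.15% of all regions, and the NFI word TTGGCA in 22.6% and 18.7%. The GLI word GACCACCCA was in 0 of 911 members and 0.299% of all merged regions. The CpG form of the HOX13 word, TCGTAAA, was in 1.1% of members and 0.995% of all merged regions.

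Each member was assigned to its nearest protein-coding start, which does not show that the gene is its target. The 911 members fell on 768 genes, of which 654 had a single member. A tie of 6 genes held the most, with 4 members each: Nfib and Zeb2, which encode transcription factors of the developing brain, Fat3, an atypical cadherin, Cntn5 and Flrt2, cell surface proteins of neurons, and Stim2, a calcium sensor. These 6 genes were also the nearest start of many merged regions, from 89 at Nfib to 138 at Flrt2. Members made up 4.49% and 2.9% of these. Rnf220, with 3 members, had only 24 merged regions. How far the number of merged regions sets this order was not tested. Some members lay far from the start, up to 1874514 bp at Flrt2, 1549312 bp at Zeb2 and 1373264 bp at Stim2. Of the 4 members of Nfib, 3 lay in its introns. Mean folds of the 4 were 5.27 to 6.13 in DFL and 5.89 to 11.2 in FB, with 11.2 at the member outside the gene. FB was higher outside the gene at chr4:82027328-82028147 (log2 difference 0.83, limma adjusted p = 0.0132) and in the intron at chr4:82662016-82663025 (0.51, limma adjusted p = 0.0257). The intron call was lost without wt DFL replicate 1, 542 DFL replicate 1, either wt FB library or 542 FB replicate 2 (limma adjusted p = 0.0519 to 0.0812). At Fat3 the direction differed within the gene. FB was higher at chr9:16256574-16258001 (log2 difference 0.48, limma adjusted p = 0.00893) and DFL at chr9:16489467-16490181 (-0.53, limma adjusted p = 0.0107), both in introns, and the second call was lost without centring (limma adjusted p = 0.0543). Of the Stim2 members, the most distant one, at chr5:55478299-55479139, was higher in DFL (11.2 ± 2.12 against 7.16 ± 1.42, log2 difference -0.83, limma adjusted p = 9.72e-04).

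Gene lists of developmental roles were read by count, beside the share of all merged regions that fell on the same genes. Calls in them are to be read beside those of all fitted members (FB higher at 29%, DFL higher at 12.1%) and of all regions fitted (13.8% and 18%). Cadherin and adhesion genes held 37 members on 23 of 46 genes (4.06% of members, 2.38% of all merged regions), among them Cdh20, Pcdh9, Lsamp and Tenm4. Their share was 3.85% in regions of FB alone and 3.36% in regions of DFL alone. FB was higher at 14 of the 37 and DFL at 7, with a median log2 difference of 0.26. The member near Tenm4, a teneurin of neuronal wiring (chr7:95834182-95835056), had 7.03, 9.14, 9.77 and 8.42 in DFL and 11.9, 11.4, 12.8 and 10.2 in FB, and its difference did not pass the test (0.26 ± 0.129, SE, limma adjusted p = 0.169). Eph and axon guidance genes held 17 members on 12 of 48 genes (1.87% against 1.58%, with 2.55% in regions of FB alone and 1.83% in regions of DFL alone). FB was higher at 6 of these members and DFL at 4. The strongest of these, near the ephrin receptor gene Epha5 (chr5:84690259-84691330), had 8.61, 8.58, 9 and 9.39 in DFL and 13, 11.9, 14.3 and 13.2 in FB (0.38 ± 0.0746, SE, limma adjusted p = 0.00823). Every FB value lay above every DFL value.

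Transcription factor lists came next. Forebrain regulators held 12 members on 8 of 37 genes (1.32% against 0.766%, with 1.39% in regions of FB alone and 0.826% in regions of DFL alone). FB was higher at 6 of these members and DFL at 0. The strongest, near Fezf1, a zinc finger gene of the forebrain, and inside an intron of Cadps2 (chr6:23280324-23281759), had 5.86, 9.02, 9.14 and 8.6 in DFL and 11.7, 13.1, 13.1 and 12.2 in FB (0.46 ± 0.148, SE, limma adjusted p = 0.0519). LIM homeobox genes and their cofactors held 6 members on 6 of 15 genes (0.659% against 0.32%, with 0.748% in regions of PFL and FB). Of these members 5 had the core and FB was higher at 4. These were Ldb2, Lhx6, Lmo1, Lmo4, Lmx1a and Lmx1b. Sox genes held 7 members on 6 of 12 genes (0.768% against 0.361%, with 0.604% in regions of FB alone), with FB higher at 3. Near Sox9, the regulator of cartilage formation, the member at chr11:112976708-112977738 had 6.47, 9.17, 9.56 and 9.29 in DFL and 14, 13.3, 16 and 15.7 in FB (0.61 ± 0.119, SE, limma adjusted p = 0.00787). Dlx genes had 1 member (0.11% against 0.0436%), near Dlx2, which was not called in all 8 libraries.

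The lists of limb regulators held few members, at shares above those of all merged regions. In regions of DFL alone the shares were 0.576% for distal limb regulators and 0.225% for Sp and Sall genes, no lower than in members. Distal limb regulators had 4 members (0.439% against 0.24%), near Msx1, Msx2 and Tfap2b, all 4 with the core and none past the test in either direction. The strongest, 225051 bp from Msx2, a homeobox gene of limb mesenchyme and ectoderm (chr13:53697779-53698581), had 9.82, 7.88, 5.53 and 6.04 in DFL and 8.87, 8.94, 9.62 and 8.62 in FB, with no PFL call. The wt DFL values were higher than the 542 DFL values there, and the 2 tissues overlapped. Sp and Sall genes had 2 (0.22% against 0.0952%), and the one near Sall3 on chromosome 18 had a mean of 4.69 ± 0.548 in DFL and 8.27 ± 0.939 in FB (0.64, limma adjusted p = 0.00625). In the HoxD landscape of chromosome 2, up to its limit at 75 Mb, none of the 79 merged regions was a member, while 9 were of DFL alone and 8 of FB alone. With 911 members among 112414 merged regions, a count of 0 among 79 lies near the overall share.

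Signalling pathways gave small counts. In regions of DFL and PFL the shares of the Wnt, Fgf and retinoic acid lists were 0.972%, 0.552% and 0.396%, near those of the members. The Wnt list had 10 members (1.1% against 0.638%), 3 each near the receptor gene Fzd8 and the effector gene Tcf7l2, with FB higher at 3 of the 9 tested. The Bmp and Tgf-beta list had 5 (0.549% against 0.6%), with FB higher at 1 and DFL at 2. Of these, the member near the receptor gene Tgfbr1 (chr4:47424206-47425034) had 6.99, 8.2, 8.62 and 9.55 in DFL and 6.94, 5.25, 5.72 and 8.71 in FB (-0.52 ± 0.148, SE, limma adjusted p = 0.0349). This call was lost without any of the DFL libraries, wt FB replicate 2 or 542 FB replicate 1 (limma adjusted p = 0.0526 to 0.111), and without centring (0.132). The Fgf list had 5 (0.549% against 0.371%), and at the member near Spry1, a feedback inhibitor of Fgf signals, DFL was higher (6.91 ± 1.42 against 5.53 ± 0.672, limma adjusted p = 0.0294), a call lost without wt DFL replicate 2, either 542 DFL library, wt FB replicate 1 or 542 FB replicate 1 (limma adjusted p = 0.063 to 0.0926), and without centring (0.0945). The retinoic acid list had 4 (0.439% against 0.199%), 3 of them near Rarb, a retinoic acid receptor gene, and the strongest was higher in DFL (7.83 ± 0.699 against 6.23 ± 0.605, limma adjusted p = 0.0178), a call lost without wt DFL replicate 1, wt FB replicate 1 or 542 FB replicate 2 (limma adjusted p = 0.0507 to 0.0611), and without centring (0.0522).

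The Hedgehog list had 2 members (0.22% against 0.232%), both near Gli3, the transcription factor that shapes digits and the dorsal forebrain, and FB was higher at both. At chr13:15221276-15222025 the fold was 6.01, 5.95, 4.61 and 6.8 in DFL and 10.6, 7.54, 9.92 and 9.02 in FB (0.49 ± 0.149, SE, limma adjusted p = 0.0425). The tissues did not overlap, and the call was lost without either wt DFL library, 542 DFL replicate 1, wt FB replicate 1 or either 542 FB library (limma adjusted p = 0.0671 to 0.126). The Notch list had 2 members (0.22% against 0.236%), near Maml2 and Maml3, and neither passed the test. Cell cycle and growth genes had 3 (0.329% against 0.286%), near Cdkn1c, Hmga2 and Mycn, with FB higher at all 3. The member near Cdkn1c, an inhibitor of cell division, lies in an intron of Kcnq1 (chr7:143340435-143341244) and had 5.11, 7.71, 5.9 and 3.97 in DFL and 10.3, 8.35, 10.8 and 10.6 in FB (0.68 ± 0.178, SE, limma adjusted p = 0.0261). The call was lost without wt DFL replicate 1, 542 DFL replicate 2, wt FB replicate 1 or either 542 FB library (limma adjusted p = 0.0577 to 0.0803). Across the lists with at least 4 members the homeodomain core was most frequent at LIM and distal limb genes, with 5 of 6 and 4 of 4 members.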

How the data were processed

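ATAC-seq libraries of DFL, FB and PFL cells (6 groups of 2, plus the earlier wt DFL library) were analysed from the called regions. Members, gene lists and motifs were chosen with earlier results of these data known. The authors trimmed reads with Cutadapt, mapped them with bowtie2 (wt on mm10, 542 on the mutant genome), kept mapping quality 30 or more, removed duplicates with Picard and called regions with MACS2 in each library. The deposited files give, per summit, a fold (a ratio of tags to local background), −log10 p-values and q-values, a score and the summit position. The deposited −log10 q-value, then fold, set the ranking, and the score was not used.

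Called regions sharing at least 1 bp were merged, and a library's value was that of its strongest overlapping region. Levels were tested with limma 3.58.1 (R 4.3.3) on log2 fold centred on the library median, with 4 group means and Benjamini-Hochberg adjustment at 0.05, after a check on simulated data. Words were matched exactly on both strands of GRCm38.p6, and genes came from GENCODE vM21. Named regions were the 12 highest by the lower tissue mean, the strongest of each list, the 5 largest calls in each direction, those of the genes with most members and those nearest the list ends. The use of capitals for the core alone and the counts of 6-letter words, palindromes, flanking letters, GC classes, core positions and summit distances were chosen after values were seen. Printed sequences leave out members on chromosome 18 and windows that touch a UTR. Alternatives were the list length, overlap, window, scaling, filters, a replicate block and each library left out. Results for some markers and 1 gene list are not reported here.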

Additional observations from a re-analysis of the deposited data

Results flagged for a closer look

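Over 151 sets of 4 library values, 8 had 1 library far from the other 3, near the share of about 5% that chance gives. The member near Sox9 was lowest in wt DFL replicate 1, at a fold of 6.47 against 9.17 to 9.56 in the other DFL libraries, and the one near Fezf1 was lowest in the same library, at 5.86 against 8.6 to 9.14. The member near Mgat4c was highest there, at 5.95 against 4.75 to 4.78, so this library did not stand apart in a single direction. In 542 DFL replicate 2, the member near Jakmip2 had 13.5 against 10.4 to 10.8, the one near Tex38 had 10.4 against 8.48 to 8.66, and one in Cntn5 had 9.16 against 5.83 to 6.38. A member near Zeb2 was lowest in 542 DFL replicate 1, at 3.96 against 5.54 to 5.78. The member near Rps12 was lowest in wt DFL replicate 2, at 4.33 against 4.97 to 4.98. All 8 were DFL sets, and the number of DFL sets among the 151 is not given here.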

How the results depend on the processing

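The number of shared regions followed the list: 187 with 20000 regions per library, 1548 with 75000, 2003 with all deposited regions, 442 when 4 of 4 libraries per tissue were asked for, and 239 when no call of any rank in PFL was allowed. It stayed within 1.5 times of 911 under the other alternatives, from 790 with the list taken over all chromosomes first (added after seeing the data) to 1186 without replicate 2 (1028 without replicate 1). The homeodomain core share, with alternatives added after seeing the data, was 46.2% for 4 of 4 libraries, 46.9% with no PFL call, 33 to 33.9% without 1 replicate number (where 2 of 2 libraries were asked for), and 31.8% in 200-bp and 48.6% in 500-bp windows (10.1% and 20.5% of all merged regions). The share of wt-chosen regions found in 542 was 33.6% with 20000 regions and 36.7% with all deposited regions, and of 542-chosen regions found in wt 26.4% and 28.2%. The share in the earlier wt DFL library was 57.2% with 20000 regions (48.5% of all merged regions) and 97.8% with all its regions (69.4%). Without centring, 52 members were called higher in DFL in place of 104. Leaving out each library gave 194 to 234 members with FB higher and 72 to 89 with DFL higher, and 0 for 542 against wt in either direction. The replicate numbers did not pair the libraries (correlations of deviations from -0.0298 to 0.017), and a replicate block gave 242 and 93 calls for FB and DFL and 0 for 542 against wt and for the interaction, and with it the call near Gli3 did not pass (limma adjusted p = 0.0646). Of 1007 alternative values of the 72 named members with a level test, 899 kept their side of the threshold, 85 lost it, 23 gained it and 0 turned the direction of a call. Region calls of pooled tissue limit all of this to presence and fold within a library.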

Other observations

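Members per 1000 merged regions ranged from 5.3 on chromosome 11 to 10.3 on chromosome 14, with 10.1 on chromosome 5. In all there were 911 members among 112414 merged regions, and the spread over chromosomes was not tested. At single members the fold of the earlier wt DFL library lay far from the 4 DFL libraries of the study. It was 19.1 near Mex3b, where these had 8.69 to 13.7, and 5.68 in Rims2, where they had 8.5 to 14.8. It was 16 at Edar, where the 4 had 9.56 to 10.9. Regions of PFL and FB that were absent from the DFL lists, the mirror class of the members, numbered 401, with promoters making up 13.5% of them against 7.57% of members.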
